A study of Mus musculus with 10 samples.

Results

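TRBV20, called V-beta 15 in the older naming, is 1 of the variable segments from which mouse T cell receptor β (TRB) chains are built. All clonotypes whose deposited V segment was TRBV20 were taken from the 9 TRB libraries of the series, which gave 584 of 29481 clonotypes, 68 of them in the 8 skin libraries and 516 in the lymph node library. A clonotype here means chains that share V, J and the nucleotides of the CDR3, the antigen-contacting junction of the segments. The segment was chosen by its measured read counts, because TRBJ2-2 chains starting CGARQG were large in CD103+ and WT dermis, so its shares, its J pairing and those chains are given as a description. Libraries came from T cells sorted from ear skin or peripheral lymph nodes, each from a pool of 5 to 18 animals, with ages not given in the sources used here. Epidermal αβ T cells of Tcrd-/- mice (B6.129P2-Tcrdtm1Mom/J, sorted as CD3hi TCRβhi) gave libraries A, B and C, and bulk dermal αβ T cells of Tcrd-/- mice (CD3+ TCRβ+) gave libraries A and B. CD103hi and CD103+ dermal αβ T cells and lymph node αβ T cells of Tcrd-/- mice, and dermal αβ T cells of WT mice (C57BL/6-N/Crl), gave 1 library each. All cells were also sorted as living and CD45+. The Tcrd-/- mutation removes the δ chain and with it γδ T cells, and every group except WT dermis carries it. TRB reads do not measure Tcrd itself.

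T cells assemble a β chain gene by joining a V, a D and a J segment in the thymus. Nucleases trim the segment ends, and terminal deoxynucleotidyl transferase adds bases that no segment encodes. Junctions made before birth have few added bases, because the enzyme appears late in development. The CDR3 begins at the conserved cysteine of the V segment and ends at the conserved phenylalanine of the J segment. In most chains the V segment contributes a start such as CAS, whereas the end of TRBV20 encodes CGAR. In GRCm38 (GENCODE M21) Trbv20 lies on the + strand of chromosome 6 from 41188273 to 41188977. Its exon 1 spans 41188273 to 41188303 and its exon 2, which carries the end that joins D and J, spans 41188674 to 41188977. Trbd1 lies from 41533201 to 41533212 and Trbj2-2 from 41542957 to 41543007.

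The junctions that recur in the results are shown 5′ to 3′ as CDR3 sequences, after the germline ends they were built from. Lower case marks the unbroken match to the V end from the left, to the J end from the right, and the longest D match between them, of at least 3 bases. Capitals mark all other bases, so germline bases beyond a single mismatch are also in capitals, which raises counts of inserted bases made this way. Added bases that happen to match a germline stretch are in lower case, which lowers the counts. They are therefore neither upper nor lower limits. The TRBV20 and TRBJ2-2 ends and the TRBD1 segment in the GRCm38 reference are as follows.
TRBV20 end: tgtggtgctaggga
TRBD1: gggacagggggc
TRBJ2-2 start: caaacaccgggcagctctacttt
The chains starting CGARQG and joined to TRBJ2-2 are shown because they hold most TRBV20 reads of the CD103+ library and include the largest TRBV20 clonotype of WT dermis.
CD103+ dermis, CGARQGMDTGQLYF, 2362 reads: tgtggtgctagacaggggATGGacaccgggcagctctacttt
CD103+ dermis, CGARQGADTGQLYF, 369 reads: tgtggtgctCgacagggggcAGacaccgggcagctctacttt
Lymph node, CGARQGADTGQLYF, 2 reads: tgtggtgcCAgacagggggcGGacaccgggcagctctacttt
WT dermis, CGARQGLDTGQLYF, 3751 reads: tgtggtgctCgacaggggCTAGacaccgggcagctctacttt
WT dermis, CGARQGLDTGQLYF, 549 reads: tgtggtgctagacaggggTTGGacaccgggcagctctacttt
In all 5 a TRBD1 stretch encodes QG, and the last capitals fall in the codons of the residue that differs (M, A or L) and of the D that follows it.
The chains starting CGAREG and joined to TRBJ2-2 are shown because they form the other group found in skin libraries of different sets.
CD103+ and CD103hi dermis, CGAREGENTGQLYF, 789 and 36 reads: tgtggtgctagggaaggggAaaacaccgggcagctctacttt
CD103+ dermis, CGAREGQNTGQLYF, 117 reads: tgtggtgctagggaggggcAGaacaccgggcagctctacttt
Lymph node, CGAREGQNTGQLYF, 1 read: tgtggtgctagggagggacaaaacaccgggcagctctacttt
WT dermis, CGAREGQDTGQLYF, 439 reads: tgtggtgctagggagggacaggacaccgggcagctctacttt
These 4 keep the whole TRBV20 end, and those of lymph node and WT dermis hold no capital.

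Depth and library of origin bear on several values below. The 9 libraries held 31823 to 189162 reads, so a count of 0 allows up to 0.00943% of reads in the shallowest and 0.00159% in the deepest, and intervals and limits cover counting error only. Going by the names that the labels give the libraries, there are 3 sets, the first with epidermal A, dermal A and lymph node, the second with epidermal B, CD103hi and CD103+, and the third with epidermal C, dermal B and WT dermis. The only TRBV20 read of epidermal C (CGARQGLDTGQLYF) and that of dermal B (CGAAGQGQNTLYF, TRBJ2-4) had the same nucleotides as WT dermal clonotypes of their set. They stood at 0.100 and 0.575% of the share that the same CDR3 had in WT dermis and are called trace clonotypes below. Of the 68 skin clonotypes, 25 lay within 2 mismatches of a clonotype of their own library and had at most 10% of its reads. These near copies numbered 2 in epidermal B, 1 in dermal A, 6 in CD103hi, 10 in CD103+ and 6 in WT dermis, and 0 in the other 4 libraries. In lymph node the rule could find none, because no TRBV20 clonotype there had more than 8 reads. Epidermal C and dermal B held only 1 TRBV20 clonotype each. Values given without near copies are therefore filtered in skin and not in lymph node. Without near copies and trace clonotypes 41 skin clonotypes were left, and whether the others came from cells was not tested.

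By reads, TRBV20 chains were common in dermal A, both CD103 sorts and WT dermis, and scarce in the epidermal libraries and in dermal B. In epidermal A, B and C they took 0.831, 0.444 and 0.00228% of reads, against 7.34 and 0.00240% in dermal A and B. The CD103hi library had 3.25% and the CD103+ library 10.3%, lymph node 1.71% and WT dermis 5.03%. From the highest down, the order was CD103+, dermal A, WT dermis, CD103hi, lymph node, epidermal A and epidermal B, and the exact 95% intervals of neighbours among these did not overlap. The single reads of dermal B and epidermal C at the end of the order cannot be told apart. The 2 bulk dermal libraries lie far apart on this scale, so counting intervals understate the spread between pools. TRBV20 was the 3rd segment of 24 by reads in dermal A and the 4th of 21 in CD103+, and the 17th of 25 in lymph node. In a read share, more cells of a clone and more RNA per cell cannot be told apart.

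By distinct clonotypes the libraries were closer together. TRBV20 made up 0.943, 1.15 and 1.39% of clonotypes in epidermal A, B and C, against 3.40 and 1.30% in dermal A and B. It made up 2.19% in CD103hi, 3.66% in CD103+, 1.93% in lymph node and 3.13% in WT dermis. The exact 95% interval of CD103+ (2.18 to 5.72%) lay above that of lymph node (1.77 to 2.11%), and every other skin interval overlapped the lymph node interval. Without near copies the CD103+ value was 2.39% (1.04 to 4.65%), and its interval then overlapped that of lymph node as well. TRBV20 ranked 11th of 24 segments by clonotypes in dermal A, where it ranked 3rd by reads. The clonotype rank rested on 8 clonotypes. It was 6th with at least 2 reads, 8th without trace clonotypes, 10th without near copies and 12th with complete CDR3s only, while the read rank stayed 3rd.

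**Figure D1:**
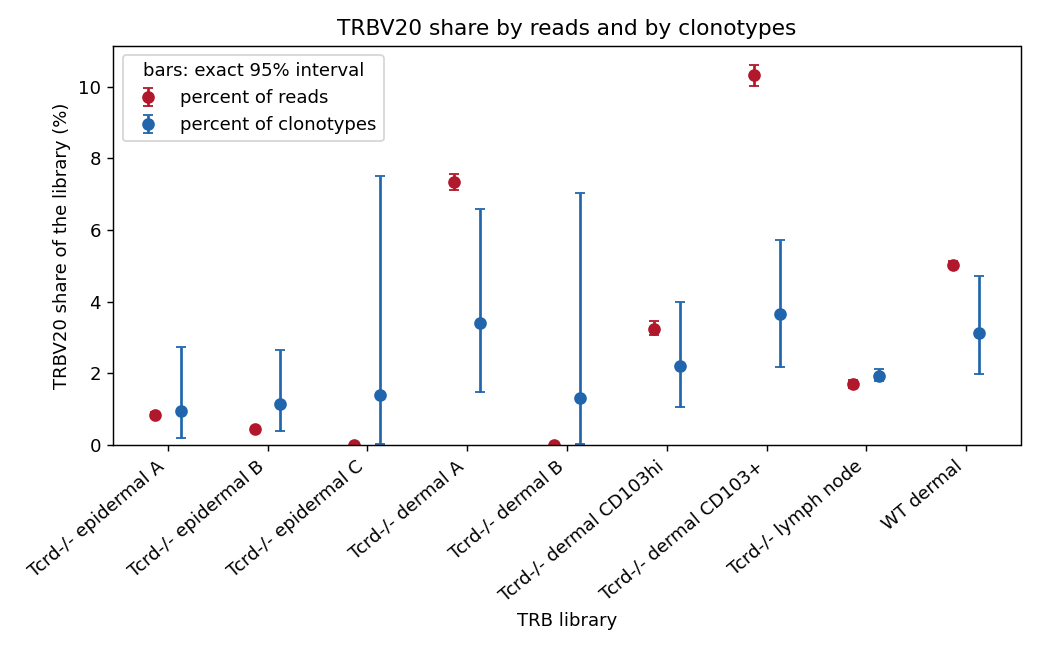
TRBV20 share of each TRB library in percent, by reads (red) and by distinct clonotypes (blue), with exact 95% binomial intervals as bars. Read shares spread from 0.00228% in epidermal C to 10.3% in CD103+ dermis, and clonotype shares from 0.943% in epidermal A to 3.66% in CD103+ dermis.

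Epidermal against bulk dermal Tcrd-/- cells was the only comparison with replicate libraries. The TRBV20 read share averaged 0.426% ± 0.414 (SD, n = 3) over the epidermal libraries and 3.67% ± 5.19 (SD, n = 2) over the dermal ones. The difference of -3.25 percentage points was smaller than the dermal spread (two-sided exact permutation p = 0.6, where the smallest possible is 0.2). It was -6.51 within the set of the A libraries, -0.000125 within the set of epidermal C and dermal B, and 0.423 without dermal A. The clonotype share averaged 1.16% ± 0.223 (SD, n = 3) over the epidermal libraries and 2.35% ± 1.49 (SD, n = 2) over the dermal ones, with a difference of -1.19 (two-sided exact permutation p = 0.4). Within the sets the clonotype difference was -2.46 and 0.0902, and it was -0.138 without dermal A. In edgeR's quasi-likelihood test over all segments, the TRBV20 log2 fold change was -3.11 by reads (adjusted p = 0.689) and -1.25 by clonotypes (adjusted p = 0.648), both epidermis over dermis. Over the alternatives the adjusted p ran between 0.303 and 0.943 by reads and between 0.370 and 0.953 by clonotypes. No segment passed, which is 0% of 23 segments by reads, with 4 at an unadjusted p under 0.05, and 0% of 21 by clonotypes, with 1. DESeq2 called 4 segments by reads and 0 by clonotypes, and TRBV20 was not among them. The labels do not state which animals went into which pool, and these p-values measure only the spread between libraries.

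The skin read shares rested on few clonotypes. Epidermal A held 3 TRBV20 clonotypes, and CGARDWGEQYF (TRBJ2-7) had 361 of their 383 reads. Epidermal B held 5, led by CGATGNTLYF (TRBJ1-3) with 105 reads, a TRBJ2-7 chain of 11 residues with 103 and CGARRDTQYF (TRBJ2-5) with 18. Both epidermal libraries thus had a TRBJ2-7 chain starting CGARDWG, of the same length but more than 1 residue apart. Their second and smaller chains shared no sequence.

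Dermal A had 8 TRBV20 clonotypes, and its 7.34% was spread over several large ones. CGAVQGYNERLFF (TRBJ1-4) had 1457 reads, a TRBJ2-5 chain of 14 residues starting CGASAG 932, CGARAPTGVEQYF (TRBJ2-7) 626, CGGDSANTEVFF (TRBJ1-1) 435 and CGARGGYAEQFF (TRBJ2-1) 349. These 5 used 5 different J segments, and none was TRBJ2-2. In CD103hi dermis 715 of the 1033 TRBV20 reads belonged to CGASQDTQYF (TRBJ2-5), the 5th largest clonotype of that library. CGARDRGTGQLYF (TRBJ2-2) had 133 reads there, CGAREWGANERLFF (TRBJ1-4) 113 and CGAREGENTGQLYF (TRBJ2-2) 36.

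The CD103+ library had 18 TRBV20 clonotypes, and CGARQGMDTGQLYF, with 2362 reads or 5.51% of all reads, was its largest clonotype of any segment. It was followed by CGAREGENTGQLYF with 789 reads, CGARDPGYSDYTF (TRBJ1-2) with 372, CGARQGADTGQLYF with 369 and a TRBJ2-5 chain of 15 residues starting CGARPTG with 263. WT dermis had 22, and the larger nucleotide version of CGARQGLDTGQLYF, with 3751 reads or 1.98%, was the 2nd largest of the library. The next were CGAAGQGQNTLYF (TRBJ2-4) with 791 reads, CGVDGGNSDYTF (TRBJ1-2) with 670, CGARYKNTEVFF (TRBJ1-1) with 658 and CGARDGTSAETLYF (TRBJ2-3) with 652. In lymph node no TRBV20 clonotype had more than 8 reads, a number reached by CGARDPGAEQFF and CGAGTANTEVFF, and 323 of the 516 had 1 read. Large TRBV20 clonotypes were therefore seen in skin libraries and not in lymph node, whose 52498 reads were spread over 26693 clonotypes of all segments.

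**Figure D2:**
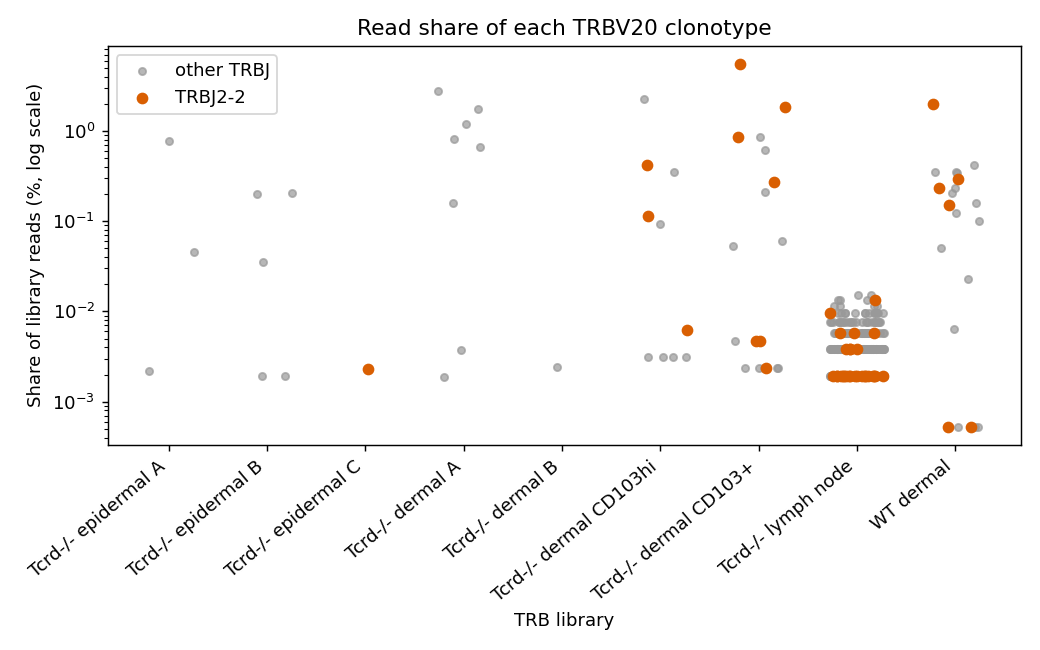
Read share of every TRBV20 clonotype in percent of its library (log scale), with TRBJ2-2 clonotypes in orange and all others in grey; points are shifted sideways at random for visibility. Orange points lead CD103+ dermis (5.51%) and WT dermis (1.98%), and grey points lead dermal A and CD103hi dermis.

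TRBJ2-2, a J segment that ends the CDR3 in NTGQLYF, was frequent among TRBV20 chains in 3 skin libraries. It was carried by 3 of 10 TRBV20 clonotypes in CD103hi, 7 of 18 in CD103+ and 6 of 22 in WT dermis. The last 2 counts are 38.9 and 27.3%. In CD103hi, CD103+ and WT dermis it was carried by 5.15, 4.85 and 6.32% of clonotypes with other V segments. The lymph node values were 5.43% of TRBV20 clonotypes (28 of 516) and 5.51% of the others. Epidermal A, epidermal B, dermal A and dermal B had 0 TRBJ2-2 clonotypes among their 3, 5, 8 and 1, too few for a low share to be seen, and epidermal C had its single trace clonotype.

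Weighted by reads, TRBJ2-2 took 16.6% of TRBV20 reads in CD103hi, 82.3% in CD103+, 5.36% in lymph node and 52.8% in WT dermis. It took 3.65, 8.70, 5.40 and 10.5% of the reads with other V segments in the same libraries. Without near copies the TRBV20 clonotypes carrying it were 2 of 4 in CD103hi, 4 of 8 in CD103+, 28 of 516 in lymph node and 4 of 16 in WT dermis. Each skin count is therefore small, and no test was made of a pairing that was part of why the segment was chosen. The TRBV20 chains of lymph node paired with the J segments much as other V segments did there. TRBJ2-7 was carried by 18.6% of the TRBV20 and 18.4% of the other clonotypes, TRBJ2-5 by 13 and 14.1%, TRBJ2-1 by 13 and 12.8%, and TRBJ1-2 by 7.95 and 5.59%.

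**Figure D3:**
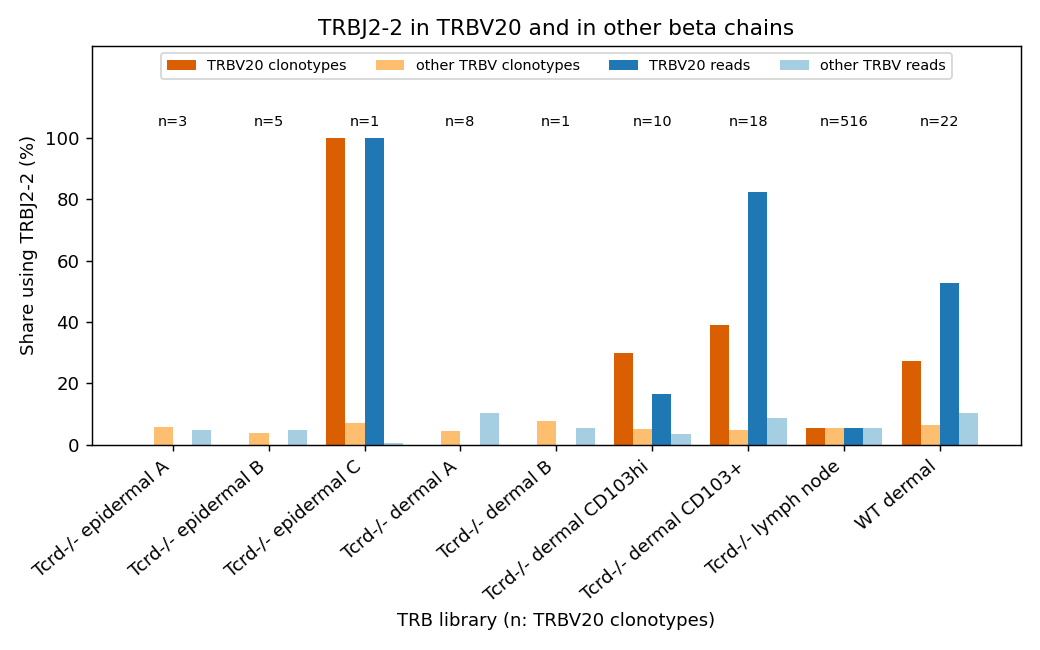
Share of TRBV20 clonotypes and reads (dark bars) and of clonotypes and reads with other TRBV segments (light bars) that use TRBJ2-2, in percent per library, with the number of TRBV20 clonotypes above. Dark bars stand above light ones in CD103hi, CD103+ and WT dermis and level with them in lymph node, and the 100% of epidermal C is a single read.

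The CGARQG chains with TRBJ2-2 formed a group of 3 amino acid sequences that differ at 1 residue, M, A or L. They held 2731 reads in CD103+ dermis, which is 6.37% of the library and 61.7% of its TRBV20 reads, and 4301 in WT dermis, which is 2.27% of the library and 45.2% of its TRBV20 reads. Lymph node had 2 reads, epidermal C its 1 trace read, and the other 5 libraries 0. The CD103+ and WT libraries are of different sets and genotypes and shared no nucleotide sequence in this group. The CD103+ clonotype with 2362 reads and the WT clonotype with 549 reads differ at 1 base, however. Whether they arose as separate junctions was not tested. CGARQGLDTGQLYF was encoded in WT dermis by the pair of large clonotypes printed above and by a near copy of 1 read. The large pair use different bases both for the arginine of CGAR and for the leucine. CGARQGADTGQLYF was encoded differently in CD103+ dermis and in lymph node.

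The CGAREG chains with TRBJ2-2 were the other group found in skin libraries of different sets. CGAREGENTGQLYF had the same nucleotides in CD103+ (789 reads) and CD103hi dermis (36 reads), which are of 1 set, and its share in CD103hi was 6.14% of that in CD103+. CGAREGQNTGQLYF had 117 reads in CD103+ dermis and 1 in lymph node, with different nucleotides. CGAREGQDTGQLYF had 439 reads in WT dermis. With the CGARQG group, TRBV20 chains with TRBJ2-2 and a CDR3 of 14 residues held 36 reads in CD103hi (0.113%), 3642 in CD103+ (8.50%), 21 over 11 clonotypes in lymph node (0.0400%) and 4741 in WT dermis (2.51%).

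Linking sequences with the same J segment and length at 1 residue gave 62 TRBV20 groups of similar or repeated CDR3s. Of these, 14 included a skin library, 7 of which also held a lymph node sequence, and the other 48 lay within lymph node. Only the CGARQG and CGAREG groups joined skin libraries of different sets, and 8 groups with a skin library were left without near copies. The other group found in several skin libraries was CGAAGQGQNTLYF with its trace read in dermal B. Of 563 TRBV20 amino acid clonotypes, 6 occurred in more than 1 library, 3 of them in more than 1 skin library. Those 3 had identical nucleotides within a library set.

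The 3 amino acid sequences shared by skin and lymph node had other nucleotides in each tissue. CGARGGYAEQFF (TRBJ2-1) had 349 reads in dermal A and 7 in lymph node, and is shown because 4 nucleotide sequences encode it.
Dermal A, 349 reads: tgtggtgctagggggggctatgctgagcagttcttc
Lymph node, 4 reads: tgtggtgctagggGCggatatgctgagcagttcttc
Lymph node, 2 reads: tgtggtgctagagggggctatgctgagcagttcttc
Lymph node, 1 read: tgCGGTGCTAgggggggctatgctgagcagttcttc
The dermal A version and the lymph node version with 2 reads hold no capital, so matches to germline V, D and J bases cover both. The deposited segment positions give the dermal A version 4 inserted bases. The dermal version itself was not listed in lymph node. The lymph node versions with 4, 2 and 1 reads had 2, 1 and 1 mismatches to it, within the limits used here for near copies inside a library, and both libraries are of 1 set. Whether they arose as separate junctions was not tested. Between CD103+ dermis and lymph node, of different sets, the versions of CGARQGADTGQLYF had 3 mismatches and those of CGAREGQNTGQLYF 2.

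The share of chains with a close relative in another set was set beside that of other segments. Among complete skin amino acid clonotypes outside near copies and traces, 5 of 39 TRBV20 clonotypes (12.8%) had one with the same V and J within 1 residue in a skin library of another set. The share was 147 of 1640 (8.96%) over all other segments, and TRBV20 ranked 6th of 24 segments. All 5 carry TRBJ2-2 and belong to the CGARQG and CGAREG groups, of which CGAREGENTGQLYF had no such relative. The stretch QG, any residue and DTGQLYF was not particular to TRBV20. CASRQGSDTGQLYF, a TRBV19 chain, had 1162 reads or 2.79% in dermal B, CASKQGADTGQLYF, a TRBV13-3 chain, had 259 reads or 0.604% in CD103+ dermis, and lymph node had 9 such sequences over 7 V segments with 15 reads in all. In WT dermis the stretch was listed with TRBV20 alone.

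TRBV20 CDR3s were shorter on average than those of other segments in lymph node, the library with most of them. The mean length there was 12.9 ± 1.38 residues over 516 clonotypes (SD) and 13.8 ± 1.45 with other V segments. The means were 13 in epidermal A, 10.2 in epidermal B, 12.9 in dermal A, 11.4 in CD103hi and 13.5 in CD103+, against 13.2, 13.1, 14.1, 13.3 and 13.5 with other segments. WT dermis had 13.1 ± 1.04 over 22 clonotypes, against 13.9 ± 1.56 with other segments. Without near copies CD103hi had 12.8 over 4 clonotypes and CD103+ 13.8 over 8, so the low CD103hi mean rested on copies of the 10-residue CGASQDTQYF. The 3 chains left in epidermal B had 10, 10 and 11 residues.

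Inserted bases were counted against the reference germline ends in the clonotypes left without near copies and traces. Among these, 2 of 3 in epidermal A, 1 of 3 in epidermal B, 1 of 7 in dermal A, 2 of 4 in CD103hi, 0 of 8 in CD103+, 43 of 516 in lymph node and 2 of 16 in WT dermis had none. The mean was 3 bases in epidermal A, 1.67 in epidermal B, 3.43 in dermal A, 1 in CD103hi, 4 in CD103+, 4.07 in lymph node and 3.94 in WT dermis. With near copies kept, it was 2.6 in epidermal B, 5.6 in dermal A, 9.5 in CD103hi, 9.67 in CD103+ and 7.86 in WT dermis. The lymph node mean stayed at 4.07, as the filter could remove no clonotype there, so skin and lymph node means are filtered unequally. The largest TRBV20 clonotypes of epidermal A, epidermal B and CD103hi each had no inserted base and are shown for that reason.
Epidermal A, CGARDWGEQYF, 361 reads: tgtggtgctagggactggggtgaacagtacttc
Epidermal B, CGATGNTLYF, 105 reads: tgtggtgctactggaaatacgctctatttt
CD103hi dermis, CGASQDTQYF, 715 reads: tgtggtgctagccaagacacccagtacttt
The last 2 join TRBV20 directly to TRBJ1-3 and TRBJ2-5 with no D base assigned. The largest clonotypes of dermal A, CD103+ and WT dermis had 4, 4 and 5 inserted bases. On the same clonotypes the deposited segment positions gave 2 of 3 without an inserted base in epidermal A, 1 of 3 in epidermal B, 0 of 7 in dermal A, 2 of 4 in CD103hi, 2 of 8 in CD103+, 81 of 516 in lymph node and 2 of 16 in WT dermis. The ways of counting thus differ in dermal A, CD103+ and lymph node. Over all TRBV20 clonotypes the deposited positions gave 7 of 10 in CD103hi, 6 of 18 in CD103+, 81 of 516 in lymph node and 3 of 22 in WT dermis. With other V segments they gave 44.5% in CD103hi, 31.0% in CD103+, 17.5% in lymph node and 21% in WT dermis.

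**Figure D4:**
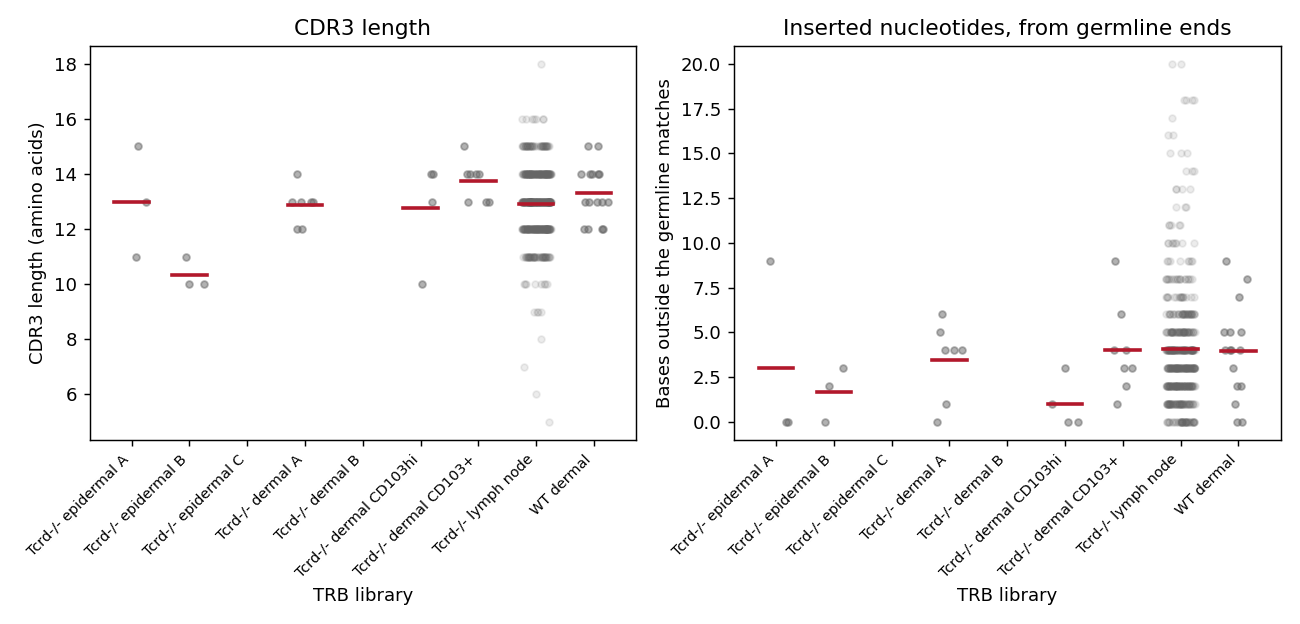
CDR3 length in residues (left) and bases outside the unbroken germline matches (right) of the TRBV20 clonotypes left without near copies and traces, 1 point each, with the library mean as a red line. Epidermal B holds the shortest mean CDR3s (10.3 residues), and CD103hi the fewest inserted bases (a mean of 1), over 3 and 4 clonotypes.

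The V end itself was not whole in most lymph node chains. Without near copies and traces, CGAR opened 3 of 3 TRBV20 CDR3s in epidermal A, 2 of 3 in epidermal B, 4 of 7 in dermal A, 3 of 4 in CD103hi, 8 of 8 in CD103+, 356 of 516 in lymph node (69.0%) and 10 of 16 in WT dermis. The whole 14-base germline end was kept in 1 of 3, 1 of 3, 0 of 7, 3 of 4, 3 of 8, 152 of 516 (29.5%) and 5 of 16 of the same clonotypes. With near copies counted, CGAR opened 3 of 10 in CD103hi and 15 of 18 in CD103+. Over the 9 libraries, the read profiles nearest to that of TRBV20 were those of TRBV13-3, TRBV31 and TRBV4, with total variation distances of 0.387, 0.415 and 0.433. The median distance over the 20 other eligible segments was 0.578, where 0 means equal profiles and 1 no overlap.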

How the data were processed

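TRB transcripts were amplified from sorted-cell RNA by 5′ RACE and PCR and read on an Illumina MiSeq, per the labels' protocols. The clonotype caller, error correction and genome build are not given in the sources used here. Per the file headers, each line of the deposited tables is a clonotype with its read count, and the authors' second value is its fraction of the library's reads. The WT epidermal γ chain library was not used.

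TRBV20 was defined from the deposited V column. Members, lists and rules were chosen with earlier results of these data known. Inserted bases were recounted against GRCm38 ends (GENCODE M21). Named clonotypes were the 5 largest per library, those in several skin libraries, and members of similar groups. Shares have exact (Clopper-Pearson) 95% intervals. Groups were compared by exact permutation and by edgeR 4.0.16 (R 4.3.3) on read and clonotype counts per segment, with library totals, a common dispersion, no TMM factor, at least 10 counts and an adjusted p threshold of 0.05. DESeq2 1.42.0 was an alternative. Near copies, and a spread trended on abundance, were added after seeing the data.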

Additional observations from a re-analysis of the deposited data

How the results depend on the processing

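The epidermal minus dermal TRBV20 read share ran between -6.92 and 0.423 percentage points when each library was left out in turn, and turned to 0.423 without dermal A. The clonotype share difference ran between -2.24 and -0.138. The TRBV20 log2 fold change by reads ran between -4.11 and 7.31 when each library was left out (7.31 without dermal A, where the lone dermal library is assumed to vary like the others) and was 1.82 with the replicate block. By clonotypes it ran between -1.59 and -0.23 and was negative in all 15 alternatives. Same-lettered libraries correlated in their deviations at 0.0859 for A and 0.306 for B over 21 segments, with only 2 pairs, so the letters are not shown to pair the samples. By reads, DESeq2 called 4 segments and the fit with a trended spread 2, against 0. Skin groups of similar CDR3s numbered 14, against 6 with at least 2 reads, 8 without near copies and 6 with identical CDR3s only. Groups between sets numbered 2, against 0 with identical CDR3s and 4 at 2 residues. Groups in several skin libraries numbered 3, against 6 at 2 residues. At least 2 reads, or no trace clonotypes, left epidermal C and dermal B with 0 TRBV20 reads. Pools of few TRBV20 clonotypes limit every skin count. The causes of these shifts were not tested.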
